A study of Mus musculus with 25 samples.

Results

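Gene expression in the brain cortex was compared between 10 5xFAD mice given P, a natural product derivative whose structure the labels do not give, and 5 5xFAD mice given vehicle. The members are these 15 libraries of the 25 in the series, and they were chosen by their labels: 5 mice at a low dose of P (low P), 5 at a high dose (high P) and 5 on vehicle. All 15 mice carry the 5xFAD transgenes, which include mutant human APP under Thy1 regulatory sequences and are therefore read mainly in neurons. The sources used here give neither the size of the 2 doses nor the age of the mice nor how long and by which route P was given. The question was which changes both doses share. Of 54532 genes listed, 15649 had at least 0.5 FPKM (fragments scaled by gene length and by library size) in at least 5 of the 15 libraries and were tested, and 23476 were at 0 in all 15.

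In this line, amyloid accumulates as plaques, and microglia, the resident macrophages of the brain, gather around them. There they switch on genes for lipid handling, lysosomal digestion, phagocytosis and antigen presentation, a programme that depends on the receptor Trem2 and its adaptor Tyrobp. Astrocytes near plaques raise Gfap and Serpina3n, and complement proteins made by glia tag synapses and debris for removal.

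Libraries held 15518358 to 17605285 reads assigned to genes, and each group had 3 males and 2 females by Xist and Y-linked genes. Thy1, whose regulatory sequences drive the transgenes, had a lowest, median and highest level of 341, 465 and 670 FPKM in P libraries and of 366, 479 and 563 FPKM in vehicle libraries, against a mean of 155 FPKM in wild-type mice on vehicle. Markers of cortical excitatory neurons summed to 641 to 1019 FPKM with P and to 690 to 921 FPKM with vehicle. Every library also held markers of the striatum, which lies beneath the cortex: their summed level had a lowest, median and highest value of 100, 257 and 766 FPKM in P libraries, against 363, 792 and 870 FPKM in vehicle libraries. Ttr, made by the choroid plexus, reached 788 and 484 FPKM in high P replicates 1 and 4 and was at most 23.7 FPKM in the other 13 libraries. The mitochondrial share of reads averaged 4.85% ± 1.11 with P and 5.50% ± 1.12 with vehicle (SD, n = 10 and 5, two-sided exact permutation p = 0.288), and it was over 6% in low P replicates 1 and 2 and vehicle replicates 4 and 5. The slope of expression on GC content and the reads per library did not pass either (exact permutation p = 0.550 and 0.111, where the smallest possible is 0.000666). Low P replicates 1 and 2 had 20069 and 18776 genes above 0 FPKM, against 21209 to 22670 in the other 13 libraries.

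**Figure D1:**
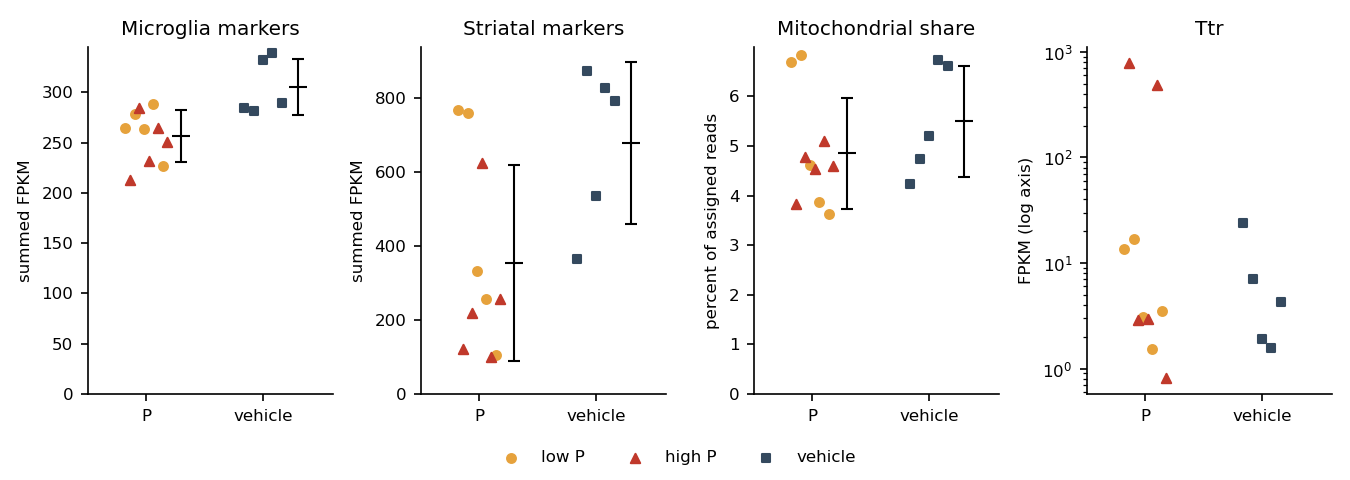
Each point is 1 5xFAD library, with low P as circles and high P as triangles in the P column and vehicle as squares; bars give the mean and SD of the 10 P and 5 vehicle libraries, and Ttr is drawn on a log axis without bars. Striatal markers reach down to 100 summed FPKM with P against 363 with vehicle, and 2 high P libraries stand apart in Ttr at 788 and 484 FPKM.

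No gene passed the test. In limma on log2(FPKM + 0.5) with a mean per dose group, 0 of 15649 genes (0.0%) had an adjusted p under 0.05 for both doses together against vehicle, with 0 higher and 0 lower, and the smallest adjusted p was 0.727. At an unadjusted p under 0.05 there were 592 genes (3.78%), of which 198 (1.27%) had a higher and 394 (2.52%) a lower estimate with P. Where nothing differs, about 5% of genes reach an unadjusted p under 0.05. Low P alone gave 0 calls and 402 genes (2.57%) at the unadjusted level, 140 (0.895%) higher and 262 (1.67%) lower. High P alone gave 0 calls and 823 genes (5.26%), 336 (2.15%) higher and 487 (3.11%) lower. The same tool in its form for read counts, voom, also gave 0 calls. No gene was called with each dose. At the unadjusted level, 23 genes (0.147%) were higher and 69 (0.441%) lower with both low P and high P; these 2 comparisons share the 5 vehicle mice.

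Estimates had a median SE of 0.13 on the log2 scale, and the median 95% interval reached 0.28 to each side of its estimate. For 94.8% of the genes tested the whole interval lay within a 2-fold change in either direction, and for 79.8% within a 1.5-fold change. At the median SE, a log2 fold change of 0.92 would have been needed for 1 gene to pass with no other gene passing. The adjusted p depends on all genes tested, so smaller differences can pass where many genes have a small p. The value is therefore not a fixed limit set by the number of mice.

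**Figure D2:**
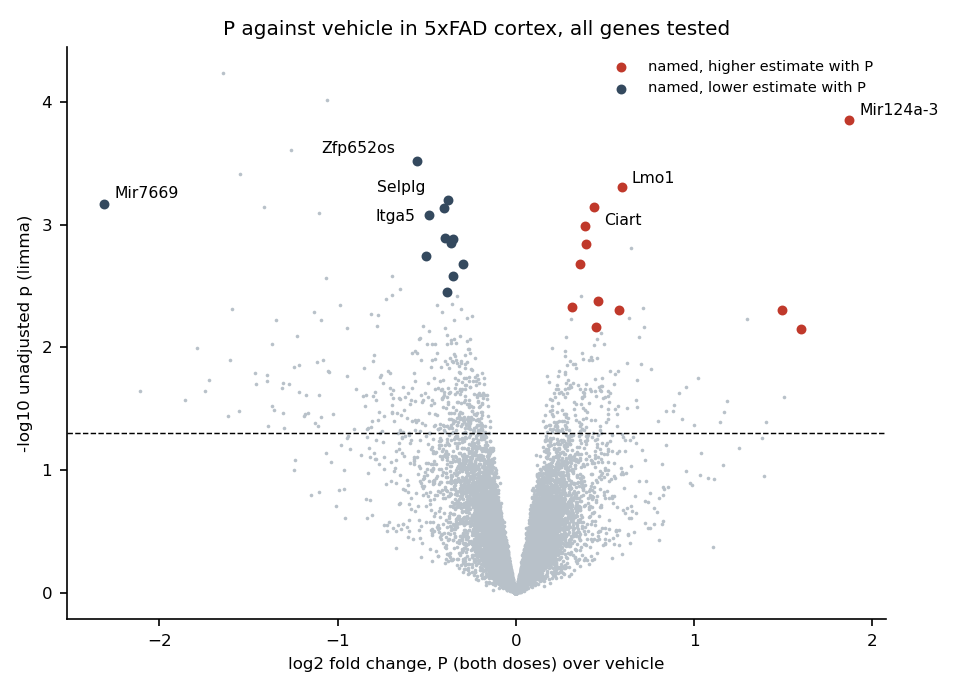
Each grey point is 1 of the 15649 genes tested, placed by its log2 fold change for P over vehicle and by the −log10 of its unadjusted value in limma; the dashed line marks the unadjusted level. The coloured points are the 24 named genes, 12 with a higher and 12 with a lower estimate with P, and none of the grey or coloured points passed the adjusted threshold.

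Since no gene was called, the 12 genes of smallest unadjusted p in each direction are described as not called, among genes averaging 1 FPKM or more, leaving out unnamed models, pseudogenes and receptor segments. Of those with lower estimates, Zfp652os had the smallest unadjusted p (0.000304 in limma), and it and Mir7669 (0.000681) are described further below. The first described are Selplg, Fcgr3, Csf3r, Itga5 and Vav1, which is not their order by p. Selplg, the P-selectin ligand that microglia carry on their surface, had 9.97, 8.56, 9.82, 12.9 and 8.83 FPKM in low P and 10.5, 11.5, 9.69, 10.7 and 8.83 FPKM in high P, against 12.9, 12.8, 14.1, 12.8 and 13.7 FPKM in vehicle mice. The values of 9 of the 10 P mice lay below the lowest vehicle value. The log2 fold change was −0.38 (SE 0.09, 95% interval −0.57 to −0.19, unadjusted p = 0.00063, adjusted p = 0.868 in limma), with −0.40 for low P and −0.36 for high P. Fcgr3, an Fc gamma receptor that binds IgG complexes, had 14.1, 12.2, 13.8, 15.1 and 12.2 FPKM in low P and 10.1, 11.9, 11.6, 11.5 and 10.8 FPKM in high P, against 15.3, 13, 17.9, 21 and 15.6 FPKM in vehicle mice. Its reads can be shared with close copies in the Fc receptor family, and the log2 fold change was −0.40 (SE 0.10), with 7 of 10 P values below the lowest vehicle value.

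Csf3r, the receptor for granulocyte colony-stimulating factor, had 5.18, 4.53, 5.35, 5.06 and 3.89 FPKM in low P and 4.38, 5.67, 5.17, 4.61 and 5.26 FPKM in high P, against 6.6, 6.95, 7.13, 5.64 and 5.67 FPKM in vehicle mice. All but 1 of the P values, that of high P replicate 2, lay below every vehicle value (log2 fold change −0.35, SE 0.09). Itga5, the fibronectin receptor subunit, had 1.78, 1.86, 1.46, 1.69 and 1.42 FPKM in low P and 1.46, 1.23, 1.95, 0.869 and 1.24 FPKM in high P, against 2.11, 2.52, 2.26, 2.35 and 2.06 FPKM in vehicle mice. The groups did not overlap (log2 fold change −0.48, SE 0.12). Vav1, a guanine nucleotide exchange factor of blood-lineage cells, had 2.34, 3.03, 2.65, 2.95 and 1.98 FPKM in low P and 1.67, 1.77, 1.94, 1.73 and 1.26 FPKM in high P, against 2.94, 2.63, 3.13, 2.95 and 2.78 FPKM in vehicle mice. Here the high P mice lay lowest and the low P mice overlapped with vehicle, with log2 fold changes of −0.65 for high P and −0.14 for low P.

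The promoters of Fcgr3, Csf3r and Vav1 are shown because they hold GAGGAA, the core of the sites bound by PU.1, the transcription factor that specifies the myeloid lineage. The windows run from 250 bases before to 50 after the RefSeq start (GRCm38.p6, on the gene's strand, the first listed start of Fcgr3), and capitals mark GAGGAA or its reverse complement TTCCTC.
Fcgr3 (chr1:171059354-171059653, minus strand): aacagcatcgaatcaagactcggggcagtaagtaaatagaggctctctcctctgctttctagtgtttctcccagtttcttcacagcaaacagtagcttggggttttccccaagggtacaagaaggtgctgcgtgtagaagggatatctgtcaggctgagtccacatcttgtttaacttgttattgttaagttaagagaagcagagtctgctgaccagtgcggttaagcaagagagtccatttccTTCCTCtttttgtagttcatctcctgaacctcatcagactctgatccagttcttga
Csf3r (chr4:126024409-126024708, plus strand): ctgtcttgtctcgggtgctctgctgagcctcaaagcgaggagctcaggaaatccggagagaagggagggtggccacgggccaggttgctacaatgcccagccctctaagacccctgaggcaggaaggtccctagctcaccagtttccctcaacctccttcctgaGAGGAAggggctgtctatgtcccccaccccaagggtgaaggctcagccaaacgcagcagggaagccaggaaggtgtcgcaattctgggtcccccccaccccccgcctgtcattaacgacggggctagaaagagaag
Vav1 (chr17:57278850-57279149, plus strand): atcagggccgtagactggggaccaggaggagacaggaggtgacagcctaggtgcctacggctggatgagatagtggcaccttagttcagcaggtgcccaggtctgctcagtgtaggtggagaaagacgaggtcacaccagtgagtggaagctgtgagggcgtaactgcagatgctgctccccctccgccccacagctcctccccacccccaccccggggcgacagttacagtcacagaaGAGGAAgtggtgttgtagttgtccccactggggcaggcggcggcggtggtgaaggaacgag
Each window held 1 match. The Fcgr3 window lies within the gene's annotated span (chr1:171051174-171064935, minus strand) and not at its 5' end. Of the 12 named genes with lower estimates, 8 had a promoter in the table and 4 of these held the motif (these 3 and Itga5), and of the 12 with higher estimates, 8 had a promoter and 2 held it. The motif occurs on either strand in 28.3% of all 27025 promoters of this length. A match describes letters and is not evidence of binding.

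Zfp652os, annotated as antisense, had 1.56 to 2.50 FPKM with P and 2.74 to 3.96 FPKM with vehicle (median 1.98 and 2.96), without overlap (log2 fold change −0.55, SE 0.12). The sources used here do not say whether counting used strand, so its reads cannot be told apart from those of a gene on the other strand. Pfkfb3, which makes the activator of phosphofructokinase and so speeds glycolysis, averaged 5.87 ± 0.602 FPKM with P and 7.72 ± 1.19 FPKM with vehicle (log2 −0.36, SE 0.09). Rnd2, a small GTPase of migrating neurons, averaged 30.5 ± 3.39 and 37.4 ± 1.65 FPKM in P and vehicle mice. Estimates for the glycosyltransferase Galnt7, the prolyl isomerase Ppil3 and Crybg3 were −0.39, −0.35 and −0.50. Mir7669 rested on 3 reads in 10 P mice and 19 in 5 vehicle mice. Over all genes, all 10 P values lay below all 5 vehicle values for 6 genes (0.0383%): Kazn, Zfp652os, Itga5, Naip5 and 2 unnamed or Riken models. Under random group labels, a gene separates fully in either direction with a probability of 0.000666 (two-sided exact permutation), so among this many genes some do so by chance. Kazn, Naip5 and those models are outside the naming rule and were singled out after their values were seen, and reads of Naip5 can be shared with close copies.

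**Figure D3:**
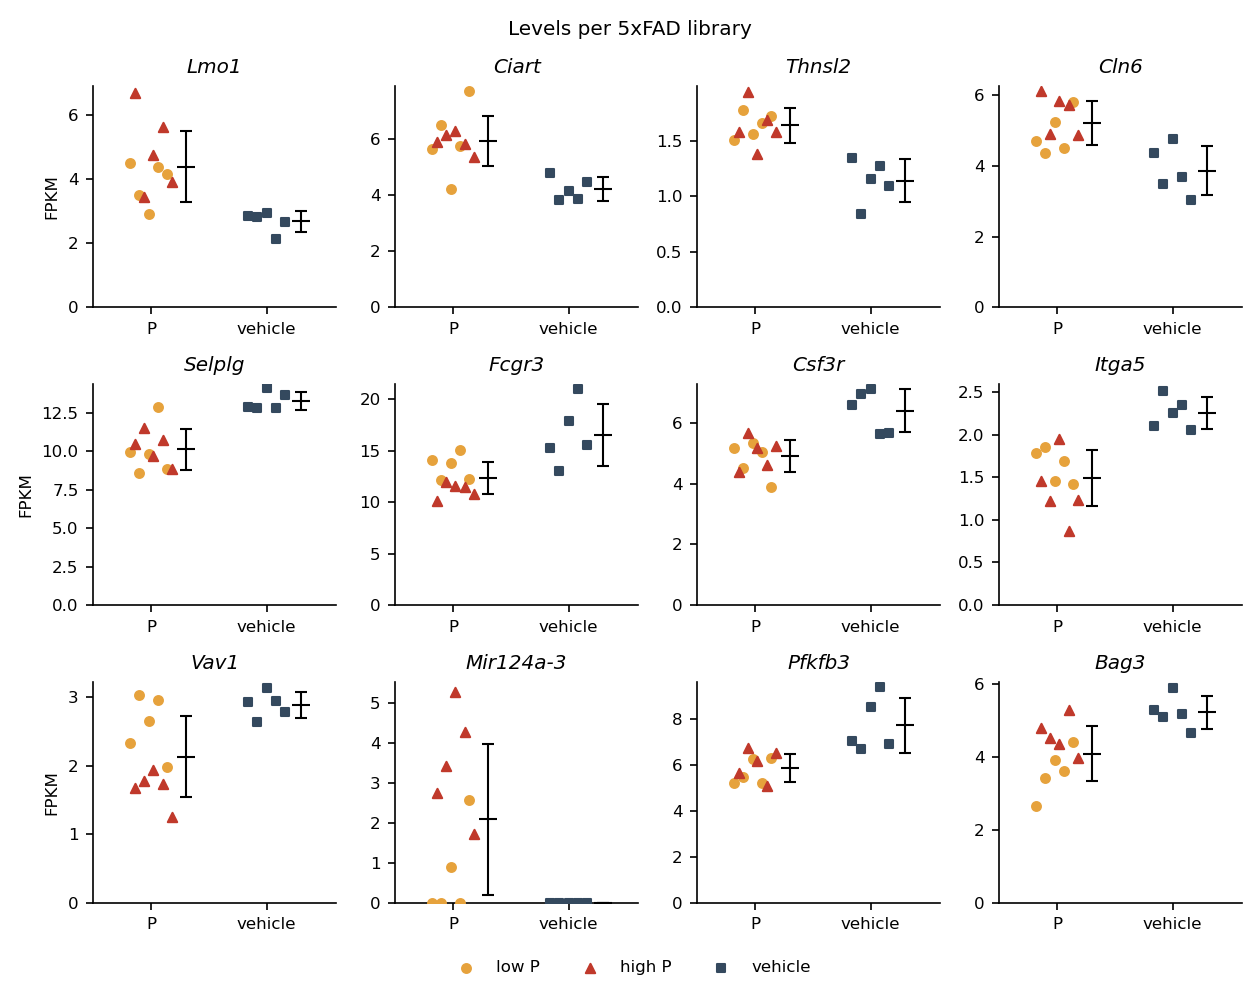
Points are FPKM values of single libraries, with low P as circles and high P as triangles in the left column of each panel and vehicle as squares on the right; bars give the mean and SD of 10 P and 5 vehicle mice. The P and vehicle columns of Thnsl2 and Itga5 do not overlap, and no gene drawn passed the adjusted threshold.

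Among the genes with higher estimates, Thnsl2, a homologue of threonine synthase, was the one gene with no overlap in that direction (0.00639% of genes). It had 1.51, 1.78, 1.56, 1.66 and 1.72 FPKM in low P and 1.58, 1.94, 1.38, 1.69 and 1.58 FPKM in high P, against 1.34, 0.836, 1.16, 1.27 and 1.09 FPKM in vehicle mice. The highest vehicle value and the lowest P value were close, and the log2 fold change was 0.39 (SE 0.10, adjusted p = 0.997 in limma). Lmo1, a LIM-domain transcriptional cofactor, had 4.50, 3.52, 2.91, 4.37 and 4.17 FPKM in low P and 6.69, 3.45, 4.77, 5.63 and 3.92 FPKM in high P, against 2.85, 2.84, 2.95, 2.14 and 2.66 FPKM in vehicle mice. All P values but that of low P replicate 3 lay above every vehicle value (log2 0.59, SE 0.14). Cln6, an endoplasmic reticulum protein needed for delivery of lysosomal enzymes, averaged 5.21 ± 0.627 FPKM with P and 3.87 ± 0.698 FPKM with vehicle (log2 0.39, SE 0.10). Dph7, an enzyme of diphthamide synthesis, averaged 5.85 ± 0.5 and 4.48 ± 0.75 FPKM in P and vehicle mice (log2 0.36, SE 0.10).

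Ciart encodes a repressor of the CLOCK and ARNTL activators of the circadian clock. It had 5.66, 6.52, 4.24, 5.78 and 7.71 FPKM in low P and 5.89, 6.16, 6.28, 5.82 and 5.36 FPKM in high P, against 4.79, 3.82, 4.14, 3.88 and 4.49 FPKM in vehicle mice. All P values but that of low P replicate 3 lay above every vehicle value, and the log2 fold change was 0.44 (SE 0.10, unadjusted p = 0.000714, adjusted p = 0.868 in limma), the same for each dose. The Ciart promoter is shown because CLOCK and ARNTL bind the E-box CACGTG, which reads the same on both strands and is marked in capitals.
Ciart (chr3:95882179-95882478, minus strand): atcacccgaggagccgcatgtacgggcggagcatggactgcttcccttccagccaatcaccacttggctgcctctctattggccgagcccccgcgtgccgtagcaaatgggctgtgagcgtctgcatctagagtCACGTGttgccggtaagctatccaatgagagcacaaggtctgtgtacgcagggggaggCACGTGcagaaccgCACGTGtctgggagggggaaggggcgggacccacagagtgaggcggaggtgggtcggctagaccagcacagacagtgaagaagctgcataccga
The window held 3 matches, and 7.24% of the promoters held at least 1; of the other 7 named genes of higher estimate with a promoter in the table none did. Other clock genes gave smaller estimates: Per3 averaged 4.37 ± 0.593 FPKM with P and 3.75 ± 0.238 FPKM with vehicle (log2 0.19, SE 0.09), and Arntl averaged 3.66 ± 0.329 and 4.07 ± 0.246 FPKM (log2 −0.14, SE 0.08). Of 18 clock genes tested, Ciart alone passed the unadjusted level, with a list median of 0.05. The sources used here do not give the hour of tissue collection.

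Estimates of other named genes were also above 0. Gstt1, a glutathione transferase, averaged 5.51 ± 1.38 FPKM with P and 3.81 ± 0.666 FPKM with vehicle (log2 0.46, SE 0.14). The Ras-related GTPase Rras2 gave 0.32, and Tnfrsf18, a receptor of the tumour necrosis factor family, gave 0.45. For low P and high P the estimates were 0.29 and 0.63 in Gstt1, 0.19 and 0.44 in Rras2, and 0.66 and 0.24 in Tnfrsf18.

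Among the named genes, the estimate furthest above 0 was at the 68 bp locus of the microRNA gene Mir124a-3 (chr2:180894040-180894107). The libraries were made from poly(A) RNA and mature microRNAs have no such tail, so reads here do not measure the mature microRNA. It had 0, 0, 0.887, 0 and 2.57 FPKM in low P and 2.75, 3.43, 5.26, 4.26 and 1.71 FPKM in high P, and 0 FPKM in each of the 5 vehicle mice. These values stand for 4 reads in low P, 20 in high P and 0 in vehicle, with a read in 7 of 10 P libraries. The level with P was at least 3.88-fold that with vehicle, and with high P at least 6.61-fold, taking 3 reads over the vehicle group as the floor. In wild-type mice the locus had 21 reads with high P and 1 with vehicle. In limma the adjusted p was 0.727 for both doses, and 0.0803 for high P alone. High P alone passed in limma with all 25 libraries (adjusted p = 0.0190), with array weights (0.00156), with quantile normalization (0.0355) and without low P replicate 5 (0.0012). The loci Mir208a, with 24 reads in P mice and 1 in vehicle mice, and Mir6941, with 16 and 0, rested on similarly few reads.

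Genes that mark microglia had lower estimates with P as a group. All 14 markers tested had estimates below 0 (51.3% of all genes did), with a median log2 fold change of −0.26 against −0.0041 over all genes, and 7 of 14 were lower at the unadjusted level (2.52% of all genes were). The lowest, median and highest summed level was 213, 264 and 288 FPKM with P, against 282, 290 and 339 FPKM with vehicle. Siglech, a sialic acid receptor of microglia, averaged 5.63 ± 0.995 FPKM with P and 6.91 ± 0.757 FPKM with vehicle (log2 −0.29, SE 0.12). The receptors Cx3cr1 and Csf1r gave −0.24 and −0.21. P2ry12, a purine receptor lost by activated microglia, and Tmem119 gave −0.30 and −0.15 with intervals that crossed 0. None of the 14 passed the adjusted threshold in limma (smallest adjusted p 0.868). The 14 were measured in the same mice and are not separate observations. Estimates below 0 also prevailed for oligodendrocyte precursors (10 of 10, median −0.16), oligodendrocytes (13 of 14, −0.18) and endothelial and mural cells (12 of 14, −0.09). In these 3 lists, 0 members were lower at the unadjusted level. Meningeal markers had 11 of 11 and excitatory neuron markers 10 of 14 estimates above 0. In bulk cortex, fewer cells of a type and less RNA per cell cannot be told apart.

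Genes of plaque-associated microglia mostly had lower estimates too, and mostly lay above wild-type levels in both groups. Of 30 tested, 28 had estimates below 0 and 8 were lower at the unadjusted level, with a median of −0.28; medians were −0.26 for low P and −0.28 for high P. For 23 of 30, every P value lay above every value of wild-type mice on vehicle (1.65% of all genes did). Cst7, a cysteine protease inhibitor, averaged 42.7 ± 12.9 FPKM with P and 56.8 ± 16.6 FPKM with vehicle (log2 −0.42, 95% interval −0.89 to 0.05), against 0.401 FPKM in wild-type mice. Ccl4, a chemokine, averaged 1.76 ± 0.44 and 3.01 ± 1.15 FPKM in P and vehicle mice (log2 −0.58, SE 0.20), and vehicle replicate 4 lay below all 10 P mice at 1.26 FPKM. The lysosomal proteins Ctsd and Cd68 gave −0.30 (SE 0.12) and −0.40 (SE 0.16), and Trem2, the sensor of the programme, gave −0.31 (SE 0.14), with 11.8 ± 2.20 and 14.7 ± 2.70 FPKM in P and vehicle mice. Itgax, Spp1 and Gpnmb had lower estimates with intervals that reached above 0. Apoe, the lipid carrier made by microglia and astrocytes, was at 566 ± 177 FPKM with P and 548 ± 131 FPKM with vehicle (log2 0.02, 95% interval −0.47 to 0.51). None passed the adjusted threshold, and the lists were chosen with earlier results of these data known.

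**Figure D4:**
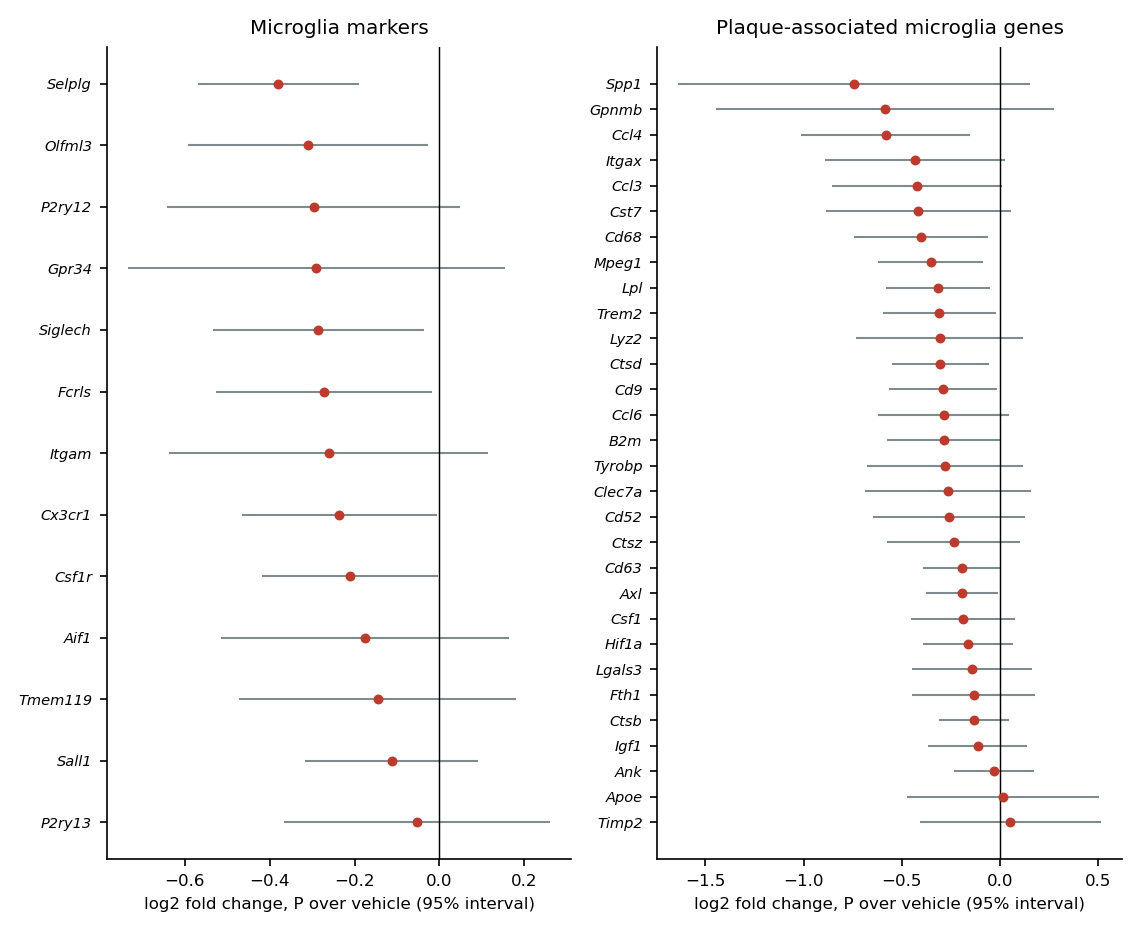
Points give the log2 fold change of P over vehicle and lines its 95% interval for 13 of the 14 microglia markers (left) and 30 genes of plaque-associated microglia (right), each sorted by estimate. All 13 and 28 of 30 points lie below 0, and the intervals of most reach 0 or beyond it.

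Over all genes, 51.3% of estimates were below 0, and at the unadjusted level 2.52% were lower and 1.27% higher. Antigen presentation genes had 16 of 19 estimates below 0 (median −0.18), with 4 lower and 1 higher at the unadjusted level. The class II chain H2-Ab1 averaged 2.90 ± 2.04 FPKM with P and 4.71 ± 0.867 FPKM with vehicle (log2 −0.76, SE 0.29), and its chaperone Cd74 gave −0.66 (SE 0.27). In both, the highest P value (8.24 and 47.3 FPKM) exceeded the highest vehicle value (5.99 and 34.4 FPKM). Ctss, the protease that processes the class II invariant chain, averaged 89.7 ± 18.7 and 119 ± 19.7 FPKM in P and vehicle mice (log2 −0.42, SE 0.15), whereas the peptide transporter Tap1 averaged 1.54 ± 0.475 and 1.05 ± 0.386 FPKM (log2 0.40, SE 0.18). Among complement genes, 12 of 15 were below 0 (median −0.07) and 2 were lower at the unadjusted level. These were the receptor subunit Itgb2 with −0.34 (SE 0.12) and C3 with −0.43 (SE 0.16). For C3 the estimate was −0.18 with low P and −0.67 with high P. C1qa, C1qb and C1qc gave −0.19, −0.22 and −0.19 with intervals that crossed 0. Interferon-stimulated genes had 19 of 23 below 0 (median −0.12) with Irf9 and Gbp3 lower at the unadjusted level. Reactive astrocyte genes had 15 of 17 below 0 (median −0.19), with 1 lower at the unadjusted level. Gfap averaged 283 ± 64.2 FPKM with P and 354 ± 90 FPKM with vehicle (log2 −0.32, 95% interval −0.69 to 0.05). General astrocyte markers gave a median of −0.06.

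Of the lists with at least 5 tested members, striatal markers had the median furthest from 0, −1.35, with 14 of 14 estimates below 0 and 13 lower at the unadjusted level. Ppp1r1b, the dopamine-regulated phosphatase inhibitor of striatal neurons, had 128, 131, 76.3, 48.2 and 32.5 FPKM in low P and 32.3, 50.9, 134, 21.6 and 48.5 FPKM in high P, against 84.9, 178, 104, 156 and 122 FPKM in vehicle mice. Low P replicates 1 and 2 and high P replicate 3 lay within the vehicle range and the other P mice below it. Slc32a1, the vesicular GABA transporter, gave −0.36 (SE 0.11) in the list of inhibitory neurons, where 8 of 14 estimates were above 0 (48.7% of all genes were). Bcl11b, a transcription factor, gave −0.44 (SE 0.17) in that of excitatory neurons, where 10 of 14 were above 0. Mme, the amyloid-degrading peptidase neprilysin, gave −0.79 (SE 0.31) in that of amyloid precursor processing and clearance, where 12 of 20 were above 0. With the striatal level as a covariate, an alternative chosen after seeing the data, the median of microglia markers was −0.19 and that of plaque-associated genes −0.23. The striatal median was then 0.02, which is near 0 by construction, because the covariate was the mean of these same striatal markers. In libraries with over 300 summed striatal FPKM, also chosen after seeing the data, the striatal, microglial and plaque-associated medians were −0.11, −0.20 and −0.25. That choice used the striatal markers too, so their median there is no separate result. The P libraries it kept were low P replicates 1, 2 and 3 and high P replicate 3, taken as 1 group, against all 5 vehicle libraries. These medians therefore rest mostly on low P mice and do not describe both doses equally. Meningeal genes lay the other way, with 11 of 11 above 0 (median 0.26), and their median was 0.05 for low P and 0.47 for high P. Without the 2 libraries of high Ttr, the meningeal median for both doses was 0.21, and in the libraries of high striatal level it was 0.0079. Of the high P mice, the latter libraries hold replicate 3 alone, so dose and striatal level cannot be told apart there.

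**Figure D5:**
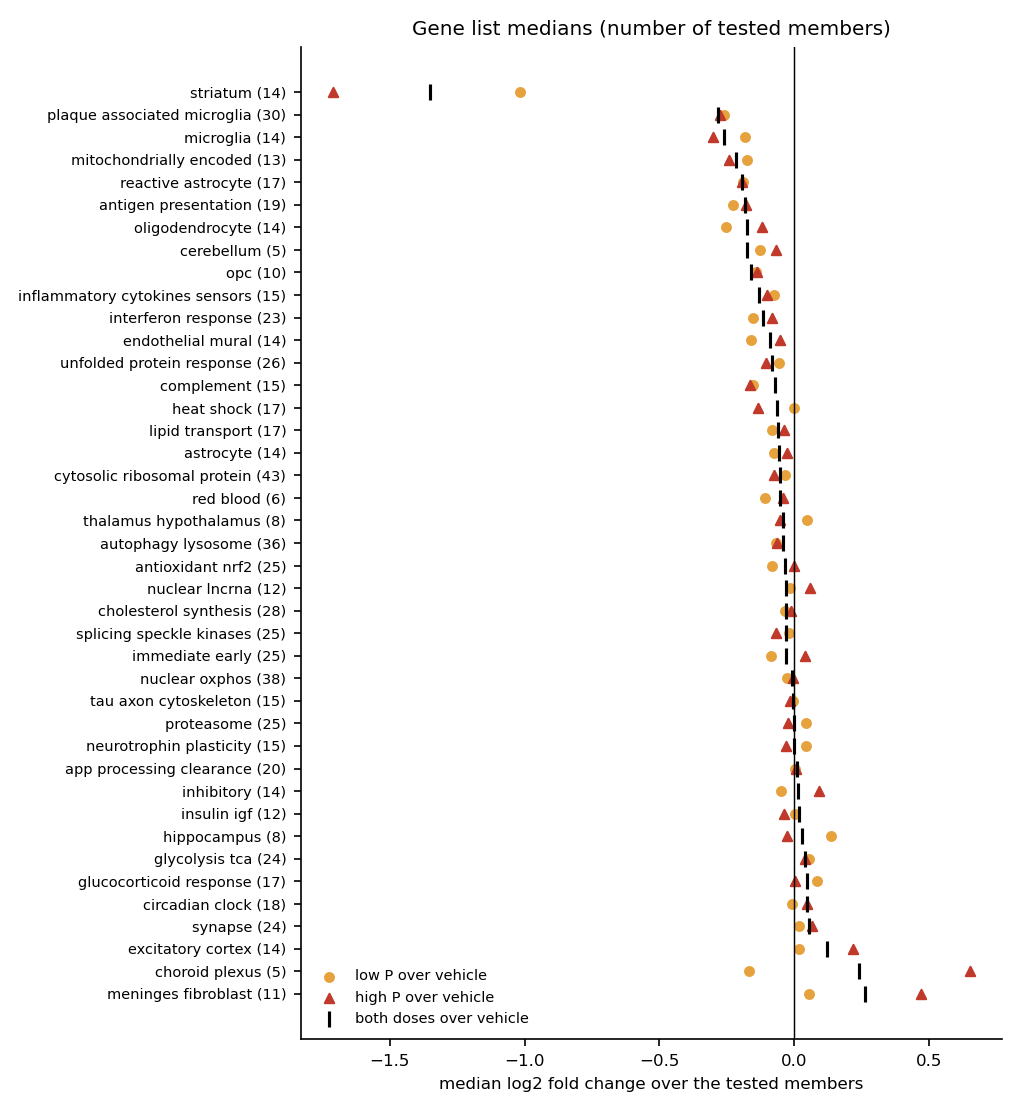
For each gene list the symbols give the median log2 fold change over its tested members (number in brackets) for low P (circle), high P (triangle) and both doses (bar), each over vehicle; OPC stands for oligodendrocyte precursor. For both doses, the striatal list lies at −1.35, the plaque-associated list at −0.28 and the microglia markers at −0.26. Meninges and choroid plexus lie at 0.26 and 0.24. The choroid plexus list has 5 tested members, and the doses lie on opposite sides of 0, at −0.17 for low P and 0.65 for high P.

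Neuronal and housekeeping groups had medians near 0. These were 0.12 for excitatory and 0.02 for inhibitory neuron markers, 0.05 for synapse genes, −0.0025 for tau and axon cytoskeleton, −0.01 for nuclear oxidative phosphorylation, −0.00013 for proteasome, 0.04 for glycolysis and citric acid cycle, −0.03 for antioxidant genes controlled by Nrf2 and −0.03 for cholesterol synthesis. Amyloid precursor processing and clearance gave 0.01; App itself was at 141 ± 10.6 FPKM with P and 139 ± 10.4 FPKM with vehicle, and the protease Adam17 averaged 2.41 ± 0.395 and 2.95 ± 0.161 FPKM (log2 −0.26, SE 0.10). Mitochondrially encoded genes had a median of −0.22 and oligodendrocyte genes one of −0.18. Bag3, a chaperone partner that directs proteins to autophagy, averaged 4.09 ± 0.744 FPKM with P and 5.21 ± 0.447 FPKM with vehicle (log2 −0.33, SE 0.10). Its log2 fold change was −0.49 for low P and −0.17 for high P.

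High P and low P were also compared directly, and 0 of 15649 genes (0.0%) were called in limma or in voom, with 783 (5.0%) at the unadjusted level, 488 (3.12%) higher and 295 (1.89%) lower with high P. The smallest p was that of Nrip3, with 25 to 27.9 FPKM in low P and 19.9 to 21.6 FPKM in high P, against 22.5 to 23.7 FPKM in vehicle mice (medians 27, 21.4 and 22.9). The doses lay on opposite sides of vehicle without overlap, so its pooled estimate was 0.04 (high over low log2 −0.34, unadjusted p = 4.53e-05, adjusted p = 0.623 in limma). Bmp6, a bone morphogenetic protein, and Fcgrt, the neonatal Fc receptor, were higher in high P than in low P (log2 0.56 and 0.53), and Vav1 was lower (−0.50). Within the microglial lists the median dose difference was −0.05 for markers and 0.01 for plaque-associated genes. In the meningeal list it was 0.58, with 7 of 11 members higher and 0 lower with high P at the unadjusted level. The choroid plexus list gave 0.82, with 1 of 5 higher and 0 lower, and high P replicates 1 and 4 were the libraries of high Ttr.

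Within the sexes, the 6 P males against 3 vehicle males gave 0 calls and 584 genes at the unadjusted level, and the 4 P females against 2 vehicle females gave 4 calls and 3096 genes. The 2 vehicle females were the vehicle libraries with mitochondrial shares of 6.73% and 6.61%, against 3.63% to 5.10% in the 4 P females; the part of this in the result was not tested. The plaque-associated median was −0.37 in males and −0.06 in females, that of microglia markers −0.20 and −0.31, and the striatal one −0.56 and −2.62. Whether the sexes differed was not tested.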

How the data were processed

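Poly(A)-selected, strand-specific libraries of mouse cortex were sequenced by the submitters, per the labels' protocols, and aligned to mm10 with HISAT2, per the submitters' processing notes; the sources used here do not give the version, the counting tool or its strand setting. The authors deposited FPKM values for 54532 genes in 25 libraries. FPKM times gene length gave whole reads for 100% of nonzero values (tolerance 0.01 read). PCR duplicates cannot be recognised, and read floors cover only the counting error of the group at 0.

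Genes reaching 0.5 FPKM in 5 or more of the 15 5xFAD libraries were tested with limma 3.58.1 in R 4.3.3 on log2(FPKM + 0.5), a scale that understates changes of low genes: a mean per group, trended variance, 12 residual degrees of freedom, two-sided Benjamini-Hochberg adjusted p under 0.05. The contrast was the mean of low P and high P minus vehicle. The script was tested on simulated data. Library values were compared by exact permutation (SciPy 1.17.1). Depth was 15518358 to 17605285 reads per library. The standard errors rest on the spread between mice.

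Members and gene lists (42 lists, 781 symbols) were chosen with earlier results of these data known. Named genes were those called with a mean of at least 1 FPKM, filled up to 12 per direction by smallest unadjusted p where fewer were called, leaving out unnamed models, pseudogenes and receptor segments; the 2 members of smallest p per list; App and Thy1; and the 6 of smallest p between doses. Other list members named above were chosen after their values were seen. Values of 2 named genes are not reported here. Promoters were taken from RefSeq (GRCm38.p6). Each library is a separate mouse, per the series' design text.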

Additional observations from a re-analysis of the deposited data

Results flagged for a closer look

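Among 339 groups of 5 values examined, a single library stood far from the other 4 in 26 cases, and chance alone flags about 1 group in 20. In low P these were Rras2 (3.11 FPKM, replicate 2), Itgb2 (8.73 FPKM, replicate 4), Slc32a1 (46.3 FPKM, replicate 1), and Vip (12.6 FPKM), Mpeg1 (23.2 FPKM) and Hsph1 (28.9 FPKM) in replicate 5. In high P, replicate 3 stood apart for Rnd2 (38.4 FPKM), Bcl11b (17.6 FPKM), Gpr6 (10.2 FPKM), Ppp1r1b (134 FPKM), Mme (1.83 FPKM) and Saysd1 (2.90 FPKM), replicate 4 for Ptgds (649 FPKM) and Gas5 (7.46 FPKM), and replicate 1 for mt-Nd4 (1960 FPKM). In vehicle mice, replicate 4 stood apart for Dph7 (3.16 FPKM), Flt1 (9.65 FPKM), H2-DMa (7.6 FPKM), Homer1 (29.2 FPKM), Gsk3b (46.1 FPKM), mt-Co3 (479 FPKM) and Saysd1 (1.73 FPKM). Vehicle replicate 1 did so for Ttr (23.7 FPKM) and Psmd4 (23.9 FPKM), replicate 2 for Mir208a (0.727 FPKM) and replicate 3 for Gbp3 (4.25 FPKM). Outside the 5xFAD comparison, Mir124a-3 had 21 reads in the 5 wild-type mice given high P, against 1 read in the 5 wild-type mice on vehicle.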

How the results depend on the processing

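The count of 0 calls for both doses against vehicle was the same in all alternatives but 3: it was 4 in females alone (mt-Tp, Htr1b, Gm26645, Mir99a) and 0 to 1 over the fits that leave out 1 library each (1 without vehicle replicate 4, Gm44361, and 1 without vehicle replicate 5, Mir7669). Low P gave 1 call in males alone (Zfp580), 1 in females alone (Mir99a) and 0 to 1 without single libraries. High P gave 1 call, Mir124a-3, with all 25 libraries, with array weights and with quantile normalization, and 0 to 1 without single libraries (1 without low P replicate 5). High P against low P gave 2 calls in males alone (Zfp580, Grp) and 0 to 1 without single libraries (Mir124a-3 without low P replicate 5). The cause of these was not tested. The replicate block gave 0 calls and 485 genes at the unadjusted level; same-numbered mice share only a number (deviations correlated at −0.412 to 0.235, 4 of 15 pairs above 0.1, and 0 of 15 libraries correlated best with their own number in both other groups). Genes at the unadjusted level numbered 328 without the libraries of high Ttr, 384 in those of high striatal level, 1311 without those of high mitochondrial share, 1415 with array weights, 1112 with no filter, 3096 in females alone and 391 (without vehicle replicate 4) to 892 (without low P replicate 2) without single libraries. The difference in reads was 399400 to 631200 without single libraries, and without high P replicate 1 it was 631200 (exact permutation p = 0.004995). In males alone the difference in mitochondrial share was 0.492 percentage points and in GC slope −0.0802, both reversed.

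No named gene whose estimate reversed was called. In males alone these were Gsk3b (0.076), mt-Nd4 (0.062), mt-Co3 (0.14), Ndufv1 (−0.019), Ddit4 (−0.15), Luc7l2 (0.023), Miat (−0.061) and Igfbp6 (−0.12), and in females alone S100a9 (0.85) and Igfbp5 (0.024). With the striatal covariate they were Ugt8a (0.034), Kl (−0.10), Ttr (−0.070), Cabp7 (−0.077), Gsk3b (0.033), mt-Nd4 (0.029), Hsph1 (0.033), Ddit4 (−0.10), Luc7l2 (0.020), Igfbp6 (−0.046) and Psmd4 (−0.025). In libraries of high striatal level they were Ugt8a (0.027), Kl (−0.11), Cabp7 (−0.021), Itpr1 (0.0014), Camk2a (−0.0041), Gsk3b (0.071), Ddit4 (−0.094) and Luc7l2 (0.021). Without the libraries of high Ttr, Kl was −0.12 and Ttr −0.49; without those of high mitochondrial share, Gsk3b was 0.0019 and Tsc22d3 −0.063. S100a9 ranged from −0.56 to 0.11 without single libraries. The planned count-model tests were not run, because the deposited unit is FPKM; voom on recovered reads was added after seeing the data. Depth limits microRNA loci, which rest on 24 reads or fewer in P mice.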

Other observations

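Cd4, listed as a leukocyte marker, followed the striatal markers across the P mice. It had 4.69, 5.81 and 4.14 FPKM in low P replicates 1 and 2 and high P replicate 3, the P libraries with the highest summed striatal levels (766, 759 and 624 FPKM), and 0.0431 to 1.54 FPKM in the other 7 P mice, against 2.06 to 5.87 FPKM in vehicle mice.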
